A study of Mus musculus with 2 samples.

Results

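The interferon-stimulated genes Ddx60, Ifit1, Ifit2, Ifit3, Stat2, Irf7, Isg15, Usp18 and Rsad2 were followed across the cell classes of mouse cerebral cortex after white matter injury (WMI). They were taken by symbol and are 9 of the 55450 genes in the files, each on 1 identifier. The data were 2 single-cell RNA-seq (scRNA-seq) libraries made from droplets, 1 control and 1 WMI, in which each RNA molecule carries a unique molecular identifier (UMI) and is counted once. Both libraries came from C57BL/6 mice labelled 2 weeks old and collected on postnatal day 14, with no engineered allele named. For the WMI library the labels give a tie of the right carotid on postnatal day 7 with 1 h of hypoxia, and cortex from the tied side was taken. The control library was cortex of that side from control animals, for which the labels name no sham step. In the paper the control is in places the unaffected side of the brain and in others a sham hemisphere or a control brain. The paper describes younger pups, a longer hypoxia and trypsin-dissociated cells, whereas the labels describe nuclei. It also describes several replicates per group, and 1 library of each group was analysed here. The number of mice in a library and their sex are not given in the labels.

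Interferons are secreted when cells sense foreign or misplaced nucleic acid. Their receptors act through Janus kinases on factors that include Stat2, which with Irf9 binds an element named the interferon-stimulated response element in the promoters of target genes. Many of these targets encode antiviral effectors, and others, such as Usp18, restrain the signal. In the brain, microglia, the resident myeloid cells, are known for a state marked by such genes after injury and in ageing.

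The core of that element, 2 copies of GAAA set 2 bases apart, was searched in the promoters because the genes were read out together. The letters GAAANNGAAA and their reverse complement TTTCNNTTTC were looked for on both strands in a window of the 250 bases before each transcription start (RefSeq sequences on GRCm38.p6). The 50 bases after the start were not searched. Of the 9 genes, 8 matched the promoter table (the entry for Usp18 was missing), and 6 of these 8 (75%) held a match. Of all 27025 genes in the table, 936 (3.46%) held one. At least 2 matches, overlapping ones included, were in 4 of the 8 genes (50%) and in 57 of all genes (0.211%). Ifit2, in both of its windows, and Irf7 held no match, which says only that these letters are not in those windows. A match is a string of letters and not a measured binding site. The matches are shown in capitals within 30 bases, written 5′ to 3′ along the strand of the gene, so that the spacing and the run of overlapping copies in Isg15 can be seen.
Ddx60 (chr8:61928024-61928053, plus strand, 53 bases before the start): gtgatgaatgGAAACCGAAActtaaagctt
Ddx60 (chr8:61928057-61928086, plus strand, 19 bases before the start): ggagcagaagaGAAACCGAAActatccttc
Ifit1 (chr19:34640775-34640804, plus strand, 104 bases before the start): caggcttcagTTTCACTTTCcagtctcagt
Ifit1 (chr19:34640794-34640823, plus strand, 85 bases before the start): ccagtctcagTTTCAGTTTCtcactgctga
Ifit3 (chr19:34583363-34583392, plus strand, 156 bases before the start): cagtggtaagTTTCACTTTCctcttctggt
Ifit3 (chr19:34583397-34583426, plus strand, 122 bases before the start): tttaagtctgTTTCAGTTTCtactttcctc
Stat2 (chr10:128270266-128270295, plus strand, 222 bases before the start): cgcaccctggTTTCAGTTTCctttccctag
Isg15 (chr4:156200871-156200900, minus strand, 78 bases before the start): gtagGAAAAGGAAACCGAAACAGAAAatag
Rsad2 (chr12:26456553-26456582, minus strand, 120 bases before the start): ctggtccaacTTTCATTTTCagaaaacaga

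In Isg15, 3 matches overlapped in 1 run of 22 bases. Both copies in Ddx60 and 1 copy in Isg15 shared the letters GAAACCGAAA. In the other interferon-stimulated genes of the pathway list, 21 of 52 (40.4%) held a match, and in the interferon receptors and kinases 0 of 8. Of the interferon ligands, 11 of 20 (55%) held one, so the match was not particular to interferon-stimulated genes. It was found in 1 of 6 transcription factors, 1 of 12 nucleic acid sensors and adaptors and 1 of 6 negative regulators. All 9 genes are protein-coding in GENCODE M21 on GRCm38, whose identifiers and symbols match those of the files, although the labels name mm9. Ifit2 (chr19:34550694-34576419), Ifit3 (chr19:34583531-34588731) and Ifit1 (chr19:34640871-34650009) lie on the plus strand within 99.3 kb, and the others lie on 6 further chromosomes. These are Ddx60 (chr8:61928087-62038244, plus), Stat2 (chr10:128270559-128292849, plus), Usp18 (chr6:121245906-121270917, plus), Irf7 (chr7:141262706-141266481, minus), Isg15 (chr4:156199424-156200818, minus) and Rsad2 (chr12:26442746-26456452, minus). Irf7 overlaps Phrf1 and Usp18 overlaps Gm44148 on the opposite strand, and whether counting used strand is not given in the sources used here. In the last 600 bases of its transcript, Ifit3 shares 18.0% of its 50-base words with Ifit3b and Isg15 shares 5.08% with AC151275.1, so that counts of these genes may be split or lost.

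The control and WMI libraries held 66470806 and 60568639 UMIs in 10288 and 8354 barcodes, and 8755 and 7571 cells remained after filters, with medians of 4198 and 4981 UMIs. They shared 36 barcode sequences, of which 29 were among the kept cells. Clusters were named from marker lists and are called "-like", since the names were rebuilt here. The classes of interest were myeloid-like (449 control and 1145 WMI cells), astrocyte-like (502 and 629), oligodendrocyte (OL)-lineage-like (576 and 983) and neuron-like (4717 and 3408). Of the 32 clusters, 3 stayed unnamed (clusters 0, 8 and 11), with 2427 control cells (27.7% of that library) and 1304 WMI cells (17.2%). Each met 10 of 10 neuron markers but was left out by further naming rules, and cluster 0 held 2360 of the control cells. Although the label is cortex, cluster 27, all 94 cells of which came from the WMI library, met 8 of 8 markers of striatal projection neurons. The median mitochondrial share was higher in the WMI library in each of the 4 classes, from 0.177% to 0.482% in myeloid-like cells and from 0.0889% to 0.765% in OL-lineage-like cells. Cells with a Y-linked UMI and no Xist UMI were 293 of the 449 control and 282 of the 1145 WMI myeloid-like cells, so that the make-up of the libraries by sex may differ. Levels are UMIs of a gene scaled to 1000000 UMIs of the cells named (counts per 1000000, CPM). Each group had 1 library, so differences have no replicate to be checked against and none was tested, and injury cannot be told apart from any other difference between the libraries. The 95% intervals are exact and cover counting error only. A count of 0 was taken to allow up to 3 UMIs.

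In myeloid-like cells every one of the 9 genes was higher in the WMI library. Their summed level was 45.2 CPM (66 UMIs) in the control library and 500 CPM (1997 UMIs) in the WMI library, 11.1-fold higher, with a log2 ratio of 3.47 (95% interval 3.11 to 3.84). All 9 genes reached 20 UMIs over both libraries and all 9 were past 2-fold higher, beside 10.2% of the 13875 genes with as many UMIs in these cells. None was past 2-fold lower, beside 3.61% of those genes. Ifit1, Ifit3, Irf7 and Rsad2 (0 control UMIs), Isg15 (1) and Ifit2 (2) reached 20 UMIs only through the WMI library. At these control counts they could only count as higher. The 9 genes were also chosen with earlier results of these data known, so the count beside all genes is a description. With the 4 genes that had no control UMI ranked highest, the median log2 ratio of the 9 genes was 4.30, the value of Isg15, which rests on 1 control UMI. With these 4 genes set at their bound the median was 2.74, and that of all genes was 0.10. The sum was mostly Ddx60 and Stat2, and without both of them it was 6.17 CPM (9 UMIs) in the control library and 116 CPM (464 UMIs) in the WMI library, a log2 ratio of 4.23 (3.30 to 5.37). Within the cells that had a Y-linked UMI and no Xist UMI, the log2 ratio of the sum of all 9 genes was 3.62 (3.20 to 4.08).

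**Figure D1:**
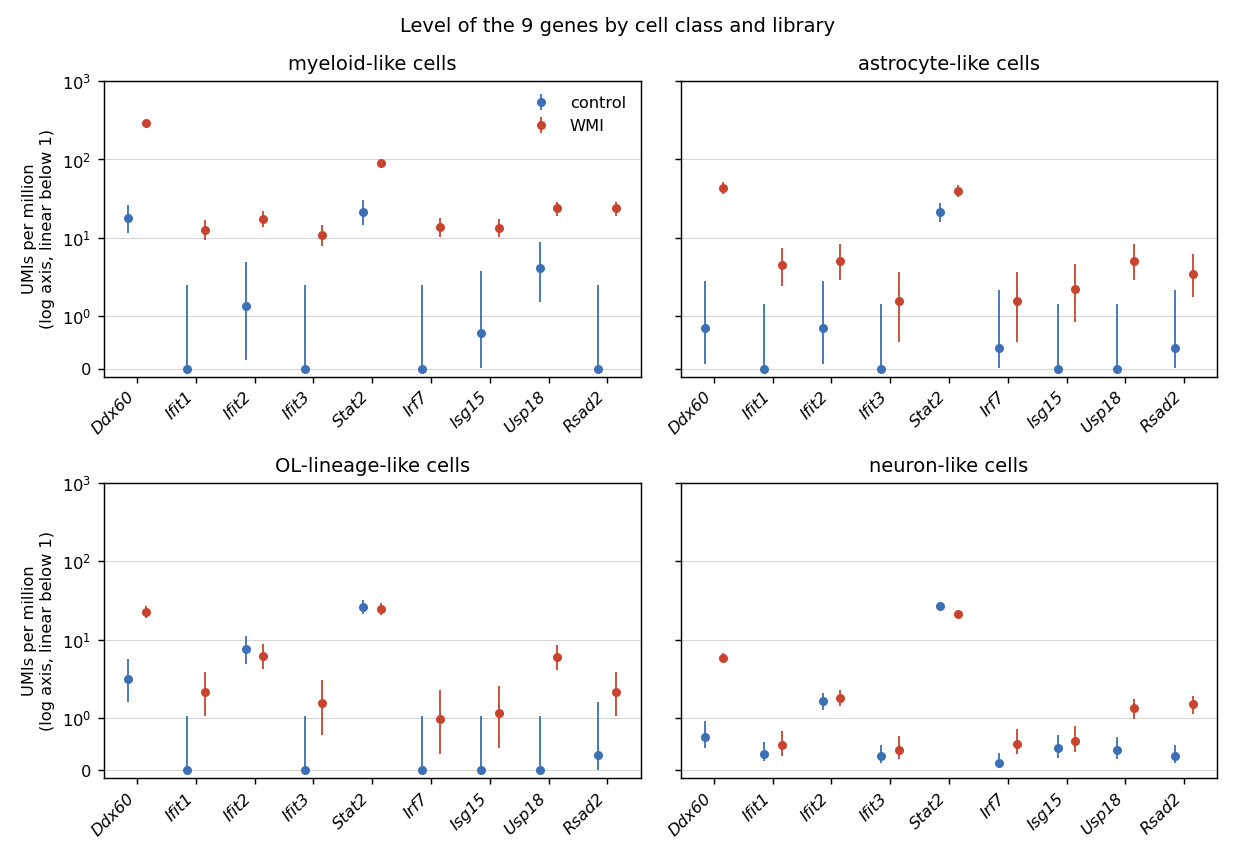
Level of each of the 9 genes in CPM (y axis, log scale that is linear below 1) in the 4 cell classes, for the control (blue) and WMI (red) libraries. Points are the level of 1 library and bars are exact 95% Poisson intervals. In myeloid-like cells each red point is above its blue point and no pair of intervals overlaps, whereas Stat2 in OL-lineage-like cells was 26.2 and 24.8 CPM.

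Of the transcription factors, Stat2, a part of the complex that type I interferon activates, was the gene with the smallest ratio in myeloid-like cells. It was at 21.2 CPM (31 UMIs) in the control library and 90.3 CPM (361 UMIs) in the WMI library, 4.25-fold higher, a log2 ratio of 2.09 (1.56 to 2.67). Irf7, the factor that amplifies the induction of interferon genes, had no UMI in the 449 control cells and 55 UMIs (13.8 CPM) in the WMI cells. This was at least 6.70-fold higher, against the 2.06 CPM that 3 control UMIs would give. Stat2 was thus detected in the myeloid-like cells of both libraries and Irf7 in those of 1.

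Of the effectors, Ddx60, an RNA helicase linked to the sensing of viral RNA, held the most UMIs. It was at 17.8 CPM (26 UMIs) in the control library and 293 CPM (1172 UMIs) in the WMI library, 16.5-fold higher, a log2 ratio of 4.04 (3.48 to 4.66). A UMI of Ddx60 was found in 21 control cells (4.68%) and 426 WMI cells (37.2%). The IFIT proteins bind foreign RNA or each other and limit its translation. Ifit1 had 0 control UMIs and 51 WMI UMIs (12.8 CPM), at least 6.21-fold higher, and in cells with a Y-linked UMI and no Xist UMI the log2 bound of 2.63 was 0.72, with an interval that reached -0.14. Ifit2 had 2 control UMIs (1.37 CPM) and 70 WMI UMIs (17.5 CPM), a log2 ratio of 3.68 (1.77 to 6.75). Ifit3 had 0 control UMIs and 44 WMI UMIs (11.01 CPM), at least 5.36-fold higher. The 3 neighbours on chromosome 19 thus held 2 control and 165 WMI UMIs together. Rsad2 encodes viperin, an enzyme that makes a nucleotide which stops viral polymerases, and had 0 control UMIs and 95 WMI UMIs (23.8 CPM), at least 11.6-fold higher.

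Isg15 is a small protein that is attached to other proteins like ubiquitin, and Usp18 is the protease that removes it and also dampens signalling at the interferon receptor. Isg15 had 1 control UMI (0.685 CPM) and 54 WMI UMIs (13.5 CPM), a log2 ratio of 4.30 (1.76 to 9.63). This ratio was between 2.30 and 2.71, with intervals that include equal levels, in 5 of 11 alternatives, and in cluster 3 alone it was 2.43 (-0.42 to 7.88). Usp18 had 6 control UMIs (4.11 CPM) and 95 WMI UMIs (23.8 CPM), a log2 ratio of 2.53 (1.36 to 4.01). The 6 control UMIs of Usp18 were in 2 cells, 1 of which held 4. The most UMIs in any 1 WMI cell, taken gene by gene, were 15 of the 54 of Isg15, 15 of the 51 of Ifit1 and 14 of the 95 of Rsad2. These maxima need not be in the same cell.

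The myeloid-like cells were of 3 clusters that were not shared equally by the libraries. Cluster 3 (424 control and 717 WMI cells) carried the markers of homeostatic microglia, at 2777 and 3234 CPM summed over the 9 markers. Cluster 12 (15 and 397 cells) was led by F13a1, Ms4a7, Gpnmb and Mrc1, genes of macrophages and phagocytes. Cluster 30 (10 and 31 cells) had the genes of cycling cells. In cluster 3 alone, the summed level of the 9 genes was 32.1 CPM (44 UMIs) in the control library and 302 CPM (691 UMIs) in the WMI library, a log2 ratio of 3.23 (2.79 to 3.71). Of the 9 genes, 5 reached 20 UMIs there and all 5 were past 2-fold higher, beside 6.64% of the 12473 genes tested in that cluster, and 0 were past 2-fold lower, beside 2.86%. They were Ddx60 at 12.4 and 153 CPM (3.63, 2.93 to 4.42 on the log2 scale), Stat2 at 18.2 and 81.3 CPM, Ifit2, Usp18 and Rsad2. Usp18 (0 and 48 UMIs) and Rsad2 (0 and 23 UMIs) had no control UMI in cluster 3, and Ifit2 had 1 and 23 UMIs. Usp18, Rsad2 and Ifit2 reached 20 UMIs only through the WMI library, so at these control counts they could only count as higher. The WMI cells of cluster 3 also carried the list of activated myeloid genes at 5062 CPM, against 233 CPM in its control cells, and the part of this shift in the ratios was not tested.

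Within the WMI library, cluster 12 had the higher levels. The sum was 302 CPM in cluster 3 and 807 CPM in cluster 12, a log2 ratio of cluster 12 to cluster 3 of 1.42 (1.28 to 1.55). Ddx60 was at 153 and 512 CPM (1.74, 1.56 to 1.92), Rsad2 at 10.1 and 45.1 CPM (2.16, 1.47 to 2.91) and Isg15 at 3.93 and 27.9 CPM (2.83, 1.77 to 4.05). Stat2 and Usp18 were less different, at 81.3 and 105 CPM (0.37, 0.06 to 0.68) for Stat2 and at 20.97 and 27.3 CPM for Usp18 (0.38, -0.25 to 1.00), whose interval includes equal levels. Other marker lists differed too between the WMI cells of clusters 3 and 12. The border macrophage markers were at 306 and 1351 CPM, the homeostatic microglia markers at 3234 and 1375 CPM, the activated myeloid genes at 5062 and 7779 CPM and the 6 neutrophil markers at 343 and 533 CPM, and their part in the result was not tested. The clusters were drawn from the same cells, with 236 genes including the 9 left out of the clustering features, and other genes that vary with them were left in. The 15 control cells of cluster 12 held 21 UMIs of the genes (423 CPM), of which 9 were of Ddx60 and 6 of Usp18. A higher share of cluster 12 in the WMI library therefore enters the ratio of the whole class, and the ratio within cluster 3 does not have this part.

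Counted per cell, at least 1 of the genes was detected in 49 of 449 control (10.9%) and 581 of 1145 WMI myeloid-like cells (50.7%). When every cell was thinned at random to 1000 UMIs, so that depth was equal, the control share was 3.79% (95% Clopper-Pearson interval 2.22 to 5.99) and the WMI share 26.2% (23.7 to 28.9), which lay 22.4 points apart (19.1 to 25.5). Before thinning, control cells had a median of 3124 UMIs and WMI cells of 3126, and no cell was left out. In cluster 3 the thinned shares were 3.54% and 19.9%, and in cluster 12 they were 13.3% (2 of 15 cells) and 37.5%. At least 2 of the genes were found in 0 of 449 thinned control cells, which allows a share of up to 0.668%, and in 5.24% of thinned WMI cells.

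**Figure D2:**
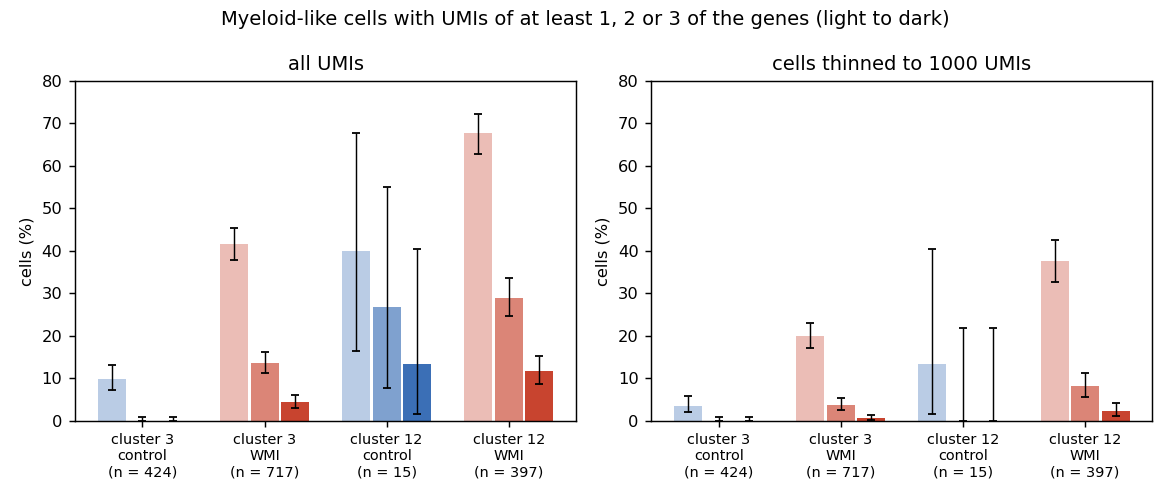
Percentage of myeloid-like cells of clusters 3 and 12 with UMIs of at least 1, 2 or 3 of the genes (light to dark bars) in the control (blue) and WMI (red) libraries, with all UMIs (left) and after thinning to 1000 UMIs (right). Bars are exact 95% Clopper-Pearson intervals and n is the number of cells. In cluster 3 the share with at least 1 gene was 9.91% in the control and 41.6% in the WMI library with all UMIs, and 3.54% and 19.9% after thinning.

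UMIs of at least 3 of the genes were in 2 control cells (0.445%) and in 80 WMI cells (6.99%) before thinning. The 80 cells came from all 3 clusters, 31 from cluster 3, 46 from cluster 12 and 3 from cluster 30, and their median depth was 4031 UMIs, against 2842.5 in the 564 WMI cells with none, and the part of depth in their choice was not tested. Of the 426 cells with Ddx60, 137 also held Stat2, and of the 46 cells with Rsad2, 28 (60.9%) held Ddx60. Of the 64 cells with Usp18, 42 (65.6%) held Ddx60 and 16 (25%) held Rsad2. Over all WMI myeloid-like cells, Ddx60 was in 37.2%, Stat2 in 21.2% and Rsad2 in 4.02%. In the WMI cells of cluster 12, which include 31 of the 46 cells with Rsad2, Ddx60 was in 55.7%. The part of cluster and depth in these overlaps was not tested. By the fixed rule, the 10 genes with the highest ratio of level in the 80 cells to the 564 cells were S100a8, S100a9, Oasl1, BC100530, Ms4a4c, Stfa2, H2-Ab1, Ifi206, Zbp1 and Cxcl10. S100a8, a calcium-binding protein of neutrophils and monocytes, had 134 UMIs in the 80 cells and 1 in the 564 cells, and S100a9, its partner, had 121 and 5. Oasl1 (31 and 2 UMIs) and Cxcl10 (90 and 12 UMIs) are themselves interferon-stimulated genes. The summed level of the other interferon-stimulated genes was 7964 CPM in the 80 cells and 1599 CPM in the 564 cells, that of the 6 neutrophil markers 911 and 325 CPM, and that of the 9 homeostatic microglia markers 1889 and 2837 CPM. The neutrophil list includes S100a8 and S100a9, which held 134 and 121 of its 375 UMIs in the 80 cells. In the 564 cells they held 1 and 5 of its 566 UMIs. The higher level of this list thus rests on S100a8 and S100a9, and the rest of the list, taken as a sum, was not higher. In the control cells of cluster 3, 1 of the 6 markers held all 243 UMIs of the list, so such a sum can rest on 1 gene. Whether neutrophils or monocytes were among the 80 cells was not tested.

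The other genes of the pathway were taken by list, and the counts are of genes with at least 20 UMIs in myeloid-like cells, to be read beside the 10.2% of all genes past 2-fold higher there. The lists were chosen with earlier results of these data known, so the counts are a description. Ligands were hardly detected. Of 21 interferon genes only Ifna14 (0 control and 1 WMI UMI) and Ifnk (2 and 1) had a UMI in any kept cell, so that no ligand could be compared at this depth. Of the receptors and kinases, 2 of 8 were past 2-fold higher and 0 lower, with a median log2 ratio of 0.69. Ifnar1, the first chain of the type I interferon receptor, was at 40.4 and 51.5 CPM (0.35, -0.07 to 0.79), and Ifnar2, the chain that Usp18 binds, was at 47.3 and 133 CPM (1.49, 1.12 to 1.87). The chains of the interferon gamma receptor were at 59.6 and 117 CPM (Ifngr1) and at 62.3 and 111 CPM (Ifngr2). Il10rb, shared by the receptors of interferon lambda and interleukin-10, was at 13.7 and 34.8 CPM (1.34, 0.66 to 2.10).

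Of the transcription factors in the list, 4 of 7 were past 2-fold higher and 0 lower, with a median of 1.09. Irf9, named here as a partner of Stat2 after its values were seen, was at 14.4 and 38.3 CPM (1.41, 0.75 to 2.14). Irf3 and Irf5, which act with Irf7 in the induction of interferon, were at 30.8 and 22.5 CPM (-0.45, -0.98 to 0.10) and at 56.9 and 53.3 CPM (-0.09, -0.47 to 0.29), and both intervals include equal levels. Of the nucleic acid sensors and adaptors, 7 of 14 were past 2-fold higher and 0 lower, and Zbp1, a sensor of Z-form nucleic acid that is named because genes with no control UMI were ranked first, had 0 and 43 UMIs (at least 5.23-fold higher). Of the other interferon-stimulated genes, 44 of 52 were past 2-fold higher and 0 lower. Their median was 2.49 with the 4 genes that had no control UMI ranked highest, or 2.20 with these at their bound. Cxcl10, a chemokine that draws T cells, had 0 and 114 UMIs (at least 13.9-fold), and Ifi27l2a had 0 and 57 (at least 6.94-fold). Gbp7, a guanylate-binding protein, was at 19.9 and 18.5 CPM (-0.10, -0.74 to 0.57). Of the negative regulators, 0 of 3 were past 2-fold in either direction.

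**Figure D3:**
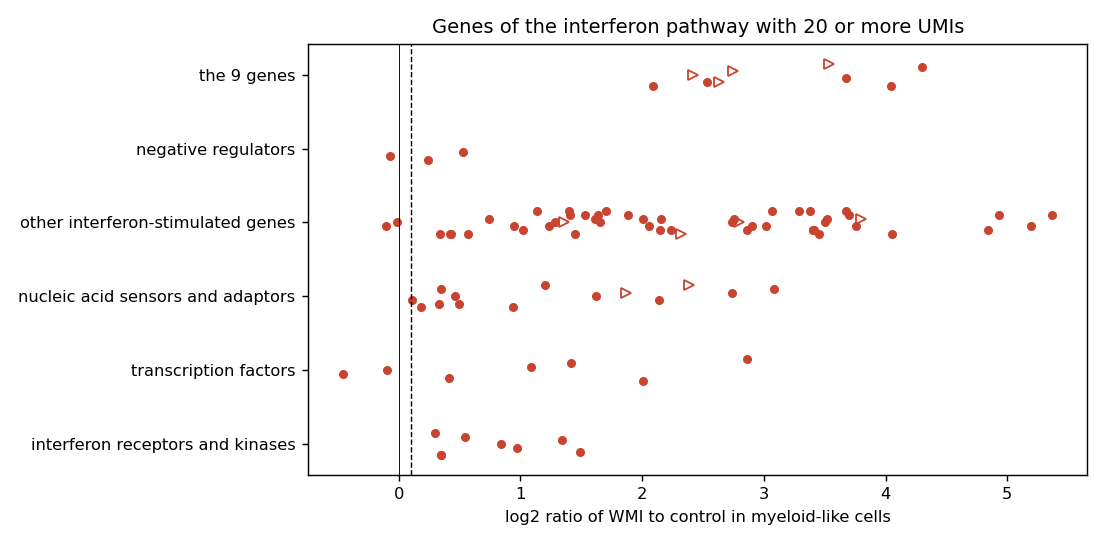
Log2 ratio of the WMI to the control level in myeloid-like cells (x axis) for each gene with at least 20 UMIs, by list (y axis). Filled points are ratios, open triangles are lower bounds for genes with no control UMI, the solid line marks equal levels and the dashed line the median of all genes (0.10). The 9 genes and most of the other interferon-stimulated genes lie to the right of 1, which is 2-fold, and 0 of the 3 negative regulators do.

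In astrocyte-like cells the summed level was 23.6 CPM (60 UMIs) in the control library and 107 CPM (336 UMIs) in the WMI library, 4.53-fold higher, a log2 ratio of 2.18 (1.78 to 2.60). Ddx60 was at 0.788 CPM (2 UMIs) and 43.4 CPM (136 UMIs), a log2 ratio of 5.78 (3.901 to 8.84). Stat2 was at 21.3 CPM (54 UMIs) and 40.2 CPM (126 UMIs), a log2 ratio of 0.92 (0.45 to 1.40). Only these 2 genes reached 20 UMIs, and 1 of them was past 2-fold higher, beside 8.96% of all genes tested in astrocyte-like cells, and 0 were past 2-fold lower, beside 2.5%. Ddx60, with 2 control UMIs, reached 20 UMIs only through the WMI library and could only count as higher. The other 7 genes held 4 control and 74 WMI UMIs together. Usp18 (0 and 16 UMIs) was at least 4.32-fold higher, Ifit1 (0 and 14) at least 3.78-fold, and Ifit2 (2 and 16) had a log2 ratio of 2.69 (0.61 to 5.86). Rsad2 had 1 and 11 UMIs, Isg15 0 and 7, Irf7 1 and 5 and Ifit3 0 and 5. After thinning, a UMI of any of the genes was left in 2.39% of control and 8.27% of WMI astrocyte-like cells, a difference of 5.88 points (3.20 to 8.57).

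In OL-lineage-like cells the summed level was 37.2 CPM (128 UMIs) in the control library and 67.7 CPM (347 UMIs) in the WMI library, 1.82-fold higher, a log2 ratio of 0.86 (0.57 to 1.17). Some genes were higher in the WMI library, and for others the interval includes equal levels. Ddx60 was at 3.20 CPM (11 UMIs) and 22.6 CPM (116 UMIs), a log2 ratio of 2.82 (1.93 to 3.87), and Usp18 had 0 and 31 UMIs, at least 6.94-fold higher. Stat2 was at 26.2 and 24.8 CPM (-0.08, -0.48 to 0.33) and Ifit2 at 7.56 CPM (26 UMIs) and 6.25 CPM (32 UMIs) (-0.28, -1.07 to 0.53), and for both the interval includes equal levels. These 4 genes reached 20 UMIs and 2 were past 2-fold higher, beside 4.41% of all genes tested in OL-lineage-like cells, and 0 were past 2-fold lower, beside 3.46%. Usp18 reached 20 UMIs on WMI UMIs alone and could only count as higher. The other 5 genes held 1 control UMI, of Rsad2, and 41 WMI UMIs together, the most being 11 each for Ifit1 and Rsad2.

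Along the lineage, the control level was highest in mature OLs, where it was mainly Stat2. OL precursor (OPC)-like cells of cluster 6 were at 28.9 and 65.3 CPM (log2 ratio 1.18, 0.70 to 1.68), premyelinating OL-like cells of cluster 9 at 24.6 and 67.4 CPM (1.46, 0.81 to 2.17) and mature OL-like cells of cluster 25 at 69.1 and 88.7 CPM (0.36, -0.26 to 0.97). The cycling OPC-like cells of cluster 29 (21 control and 29 WMI cells) were at 49.0 and 45.5 CPM (-0.11, -1.77 to 1.59), on 7 and 8 UMIs, of which Ifit2 held 6 and 1. In the mature cells 49 of the 51 control UMIs and 28 of the 43 WMI UMIs were Stat2. Of the 26 control UMIs of Ifit2 in the lineage, 17 were in the OPC-like cells of cluster 6 and 6 in the cycling OPC-like cells of cluster 29. The thinned shares of OL-lineage-like cells with any of the genes were 3.47% and 5.19%, a difference of 1.72 points (-0.54 to 3.78) whose interval includes 0. With all UMIs they were 18.6% and 23.3%, a difference of 4.72 points (0.42 to 8.87), at median depths of 5377.5 and 4519 UMIs.

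In neuron-like cells the summed level was 30.99 CPM (1246 UMIs) in the control library and 33.5 CPM (1256 UMIs) in the WMI library, a log2 ratio of 0.11 (-0.0014 to 0.23), and single genes went in both directions. Stat2, which made up most of the sum, was at 26.9 CPM (1080 UMIs) and 21.1 CPM (789 UMIs), a log2 ratio of -0.35 (-0.49 to -0.22). Ddx60 was at 0.647 CPM (26 UMIs) and 5.87 CPM (220 UMIs), a log2 ratio of 3.18 (2.59 to 3.83). All 9 genes reached 20 UMIs. Ddx60, Rsad2 (11 and 56 UMIs, 2.45), Irf7 (6 and 19, 1.76) and Usp18 (16 and 50, 1.75) were past 2-fold higher, 4 of 9 beside 4.34% of all genes tested in neuron-like cells, and 0 were past 2-fold lower, beside 4.84%. With 6 control UMIs, Irf7 could reach 20 UMIs only at a level past 2-fold higher. The intervals of Ifit1, Ifit2, Ifit3 and Isg15 include equal levels. The thinned shares of cells with any of the genes were 2.99% and 4.05%, a difference of 1.06 points (0.23 to 1.92).

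A single control cell held a large part of the control UMIs of several genes in neurons. It was in cluster 21, which met 6 of 8 markers of immature neurons and held 64 control and 129 WMI cells. The cell held 57 of the 68 control UMIs of the cluster (83.8%), from 8 of the 9 genes, among them 14 of Ddx60, 16 of Stat2, 10 of Usp18 and 8 of Rsad2. All neuron-like control cells together held 26 UMIs of Ddx60, 16 of Usp18 and 11 of Rsad2. It had 13658 UMIs, with 206 UMIs of the other interferon-stimulated genes, 21 UMIs of 10 of the 16 myeloid markers and UMIs of 4 of the 8 immature neuron markers. With it the sum in cluster 21 was 196 CPM in the control and 72.2 CPM in the WMI library, a log2 ratio of -1.44 (-2.06 to -0.84), and without it the control level was 33.0 CPM and the ratio 1.13 (0.13 to 2.25). Without the cell of each library with the most UMIs of the genes, the ratio over all neuron-like cells was 4.30 for Ddx60, 4.32 for Rsad2, 3.35 for Irf7 and 3.04 for Usp18. That of the sum was then 0.17 (0.06 to 0.29), an interval that no longer includes equal levels.

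Across the 26 clusters with at least 20 cells of both libraries, the log2 ratio of Ddx60 was above 0 in 24, and its interval was above 0 in 18 and below 0 in 0. The ratio of the sum of the other 7 genes was above 0 in 23 of the 26, with its interval above 0 in 13 and below 0 in 1, which was cluster 21. The ratio of Stat2 was above 0 in 9 of the 26, with its interval above 0 in 4 and below 0 in 2. Among the 17 neuron-like clusters of this size, the interval of Ddx60 was above 0 in 11, that of Stat2 in 1.

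**Figure D4:**
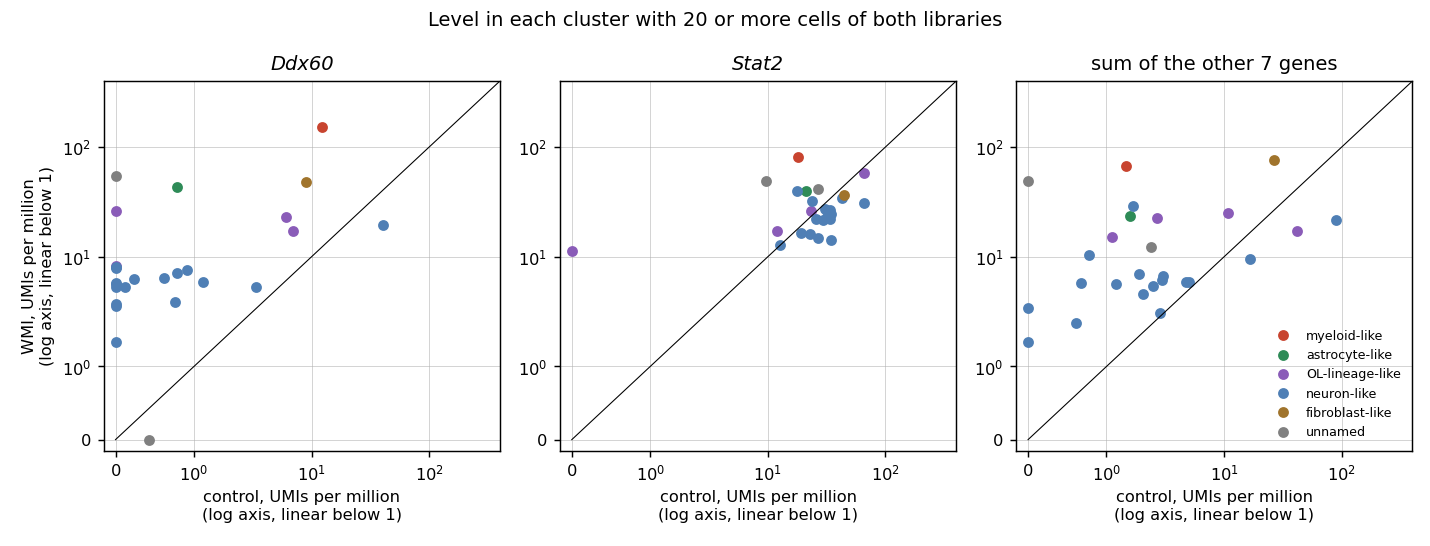
Control level (x axis) against WMI level (y axis) in CPM, both log scales that are linear below 1, for Ddx60, Stat2 and the sum of the other 7 genes. Each point is 1 of the 26 clusters with 20 or more cells of both libraries, coloured by class, and the line marks equal levels. For Ddx60, 24 points lie above the line, whereas for Stat2 the points lie on both sides of it.

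In droplet data, RNA set free from one cell type can be counted in another, so the genes were set beside the 16 myeloid markers, which astrocytes, OLs and neurons should lack. Summed, these markers were in astrocyte-like cells at 3.02% of their level in myeloid-like cells in the control library and at 10.0% in the WMI library. In OL-lineage-like cells they were at 2.88% and 9.55%, and in neuron-like cells at 2.10% and 5.17%. Single markers ranged from 3.10% to 20.9% in WMI astrocyte-like cells, from 2.73% to 25.2% in OL-lineage-like cells and from 1.66% to 12.8% in neuron-like cells. The medians of the single markers there were 13.95%, 14.07% and 7.82%, above the summed values. The markers outside their class were thus also higher in the WMI library, in the direction of the interferon-stimulated genes.

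On the same scale, Stat2 stood above the summed markers in all 3 classes of the WMI library, at 44.5% of its myeloid level in astrocyte-like, 27.4% in OL-lineage-like and 23.3% in neuron-like cells. These values were beyond the range of the single markers, but in OL-lineage-like cells the interval (22.2 to 33.7) includes the highest single marker (25.2%). Ifit2 was also above the summed markers in the 3 classes, at 29.1%, 35.7% and 10.4%. Usp18 was above them in astrocyte-like (21.5%, 11.8 to 36.7) and OL-lineage-like cells (25.5%, 16.4 to 38.5). All these intervals of Ifit2 and Usp18 reach into the range of the single markers. Those of Usp18 in astrocyte-like and of Ifit2 in neuron-like cells (7.31 to 14.7) also include the median of the single markers. Ddx60 was above the summed markers in astrocyte-like cells (14.8%, 12.3 to 17.7), with an interval that includes that median. It was below the summed markers in OL-lineage-like cells (7.72%, 6.32 to 9.35) and in neuron-like cells (2.00%, 1.73 to 2.31), and was within the range of single markers in all 3. In the control library Ddx60 was at 18.0% (8.01 to 37.6) in OL-lineage-like cells, against 2.88% for the summed markers and 16.6% for the highest single marker, and at 3.63% (2.03 to 6.51) in neuron-like cells, against 2.10%. Of the 26 Ddx60 UMIs behind this neuron-like value, 14 were in the 1 cell of cluster 21 that also held 21 myeloid marker UMIs. In OL-lineage-like cells the interval included the summed marker value for 5 genes (Ifit1, Ifit3, Irf7, Isg15 and Rsad2), and in neuron-like cells for 6 (these and Usp18). In astrocyte-like cells it did so for 4 genes (Ifit3, Irf7, Isg15 and Rsad2), and Ifit1 was above it (34.98%, 17.9 to 64.2). The interval of Ifit1 there also reaches into the range of the single markers.

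**Figure D5:**
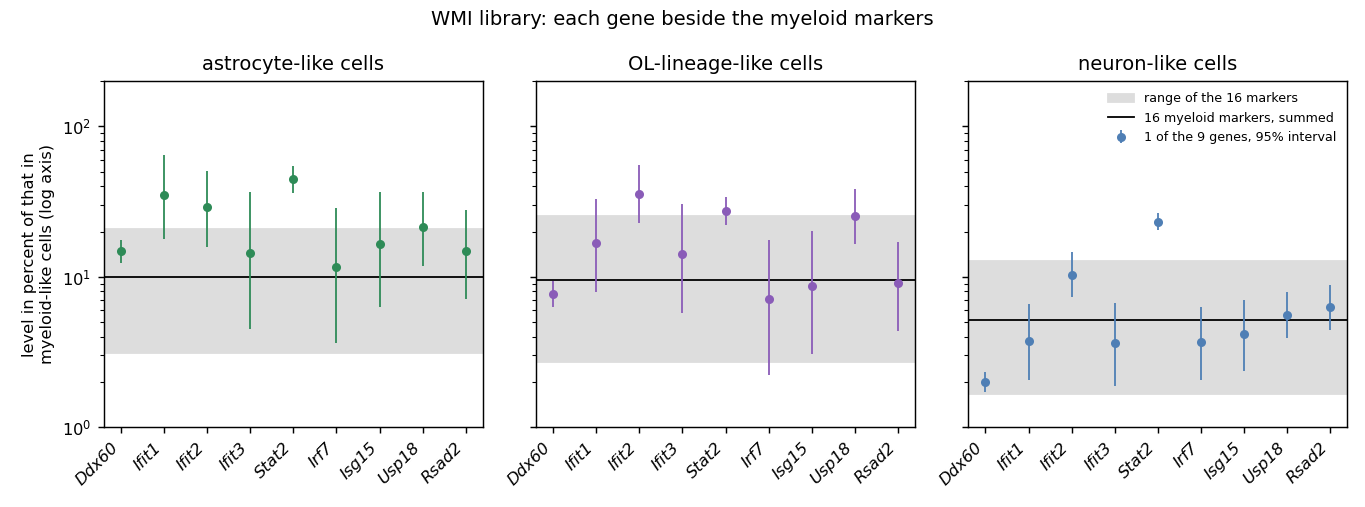
Level of each gene in 3 classes of the WMI library as a percentage of its level in the myeloid-like cells of that library (y axis, log scale). Points are the genes with 95% intervals, the line is the summed level of 16 myeloid markers on the same scale (10.0%, 9.55% and 5.17%) and the grey band is the range of the single markers. The Stat2 point lies above the band in each panel, with an interval that reaches into the band in OL-lineage-like cells. Ddx60 lies below the line in OL-lineage-like and neuron-like cells.

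The share of Ddx60 among the UMIs of the genes differed between classes. Among the UMIs of the 8 genes other than Stat2 in the WMI library, Ddx60 was 71.6% (69.4 to 73.8) in myeloid-like, 64.8% (57.9 to 71.2) in astrocyte-like, 52.7% (45.9 to 59.5) in OL-lineage-like and 47.1% (42.5 to 51.7) in neuron-like cells. In the control library it was 74.3% (26 of 35 UMIs), 33.3% (2 of 6), 28.9% (11 of 38) and 15.7% (26 of 166). The 26 neuron-like UMIs include 14 from the 1 cell of cluster 21. Myeloid marker RNA in WMI cells with and without a UMI of these 8 genes was at 721 and 708 CPM in astrocyte-like, 653 and 682 CPM in OL-lineage-like and 371 and 365 CPM in neuron-like cells, with overlapping intervals. The cells with such a UMI were deeper, at medians of 5253 against 4436, 5138 against 4369.5 and 9951 against 9139 UMIs. This comparison cannot tell from which cell a UMI came, and the part of free RNA in each level was not tested.

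The smaller classes had few cells. Fibroblast-like cells (60 and 86) were at 80.2 CPM (27 UMIs) and 162 CPM (70 UMIs) for the sum, a log2 ratio of 1.01 (0.35 to 1.71), and endothelial-like cells (24 and 16) held 3 and 9 UMIs. In the WMI library the summed level thus ran from myeloid-like (500 CPM) through fibroblast-like (162), endothelial-like (118, 54.0 to 224) and astrocyte-like (107) to OL-lineage-like (67.7) and neuron-like cells (33.5), and the interval of endothelial-like cells includes the values of its neighbours. In the control library the order was fibroblast-like (80.2), myeloid-like (45.2), OL-lineage-like (37.2), endothelial-like (33.0), neuron-like (30.99) and astrocyte-like cells (23.6). There the intervals of all neighbours in this order overlapped. They were 52.9 to 117 for fibroblast-like, 34.97 to 57.5 for myeloid-like and 31.04 to 44.2 for OL-lineage-like cells. For endothelial-like, neuron-like and astrocyte-like cells they were 6.81 to 96.4, 29.3 to 32.8 and 18.0 to 30.4.

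The genes whose levels were most like the summed level of the 9 were found over 52 profiles, the clusters of each library with at least 50 cells, among 15338 genes with at least 200 UMIs. The profiles share libraries, depth and free RNA, so the values are a description. Cxcl10 was first, with a Pearson correlation of 0.86 on log2(CPM + 1), followed by Sp100 (0.85), Oasl2 (0.83), P2rx4 (0.83), Gm8995 (0.82), Gm4951 (0.82), Kdm2a (0.81), Parp14 (0.81), Mx1 (0.81) and Hnrnpul1 (0.81). Of these 10, 5 were in the list of other interferon-stimulated genes. Among the 9 themselves, the correlation of each with the sum of the others ran from 0.45 for Stat2 and 0.65 for Ifit2 to 0.86 for Usp18.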

How the data were processed

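Transcripts were counted in 1 control and 1 WMI library, grouped by the labels. The deposited values are raw UMI counts, which per the file headers come from Cell Ranger 6.1.1. The submitters' processing notes name Seurat and mm9, whereas all 55450 identifiers match GENCODE M21 on GRCm38. Barcodes needed 1000 UMIs, 500 genes and at most 10% mitochondrial UMIs (748 control and 241 WMI barcodes did not pass). Predicted doublets (785 and 542) were removed, and of 500 artificial doublets added to each library the removal found 94.2% and 82.4%. Cells were integrated and clustered with Seurat 5.3.0 in R 4.3.3 (2000 features, 30 dimensions, resolution 0.8), leaving out as features 236 genes, which were the 9 genes, the pathway lists, cell-cycle genes, Xist, Tsix and Y-linked genes. To be named, a cluster had to meet 4 markers and 40% of a list (60% for neurons). A name was withheld where a neuronal cluster also met markers of another class or where mitochondrial genes were among the leading genes. It was also withheld where markers of another class led, or where depth was low and no marker of the class led.

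Intervals are exact Poisson for a level, binomial given the sum of both counts for a ratio, and Clopper-Pearson for a share. Genes with 20 UMIs over both libraries were set against the 2-fold line. The interval code was tested on simulated data (Python 3.11.15, numpy 2.4.6, scipy 1.17.1). The genes named are the 9, the 3 highest and 3 lowest pathway genes and the ligands and receptors in myeloid-like cells, the 10 most alike genes, and the 10 genes with the highest ratio in cells with at least 3 of the 9. Irf9 was added later. An item withheld for evaluation is not reported here. The 9 genes and all lists were chosen with earlier results of these data known.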

Additional observations from a re-analysis of the deposited data

Results flagged for a closer look

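Ratios below 0, against the direction of the myeloid-like cells as a whole, were found for the sum in 9 of the 26 larger clusters and for Stat2 in 17, and 4 cases are given here. The interval lay below 0 in only 1 of the 26 clusters for the sum, cluster 21, and in 2 for Stat2. None of these differences was tested, since each condition had 1 library. In cluster 21 the log2 ratio of the 9 genes summed was -1.44, and without 1 control cell it was 1.13. Stat2 in neuron-like cells had a log2 ratio of -0.35, against 2.09 in myeloid-like cells. Ifit2 in OL-lineage-like cells had -0.28, with an interval that includes equal levels, against 3.68 in myeloid-like cells. Usp18 in cluster 12 had -2.15 (-3.39 to -0.62), which rests on 6 UMIs in 2 of the 15 control cells.

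UMIs of the genes were also counted in cells outside the comparisons. The unnamed cluster 8 (13 control and 734 WMI cells, led by haemoglobin genes) had 136 CPM of the 9 genes in the WMI library and 0 control UMIs. The unnamed cluster 11 (54 and 522 cells, led by Cd74, Trp73 and Ftl1, with mitochondrial genes among the first 10) had 145 CPM in the WMI library and 26.9 CPM (5 UMIs) in the control library. Over all unnamed cells of the WMI library, the 16 myeloid markers were at 31.7% of their level in myeloid-like cells and the 9 genes at 27.1%. In the control library these values were 4.99% and 28.3%. The part of free RNA in these clusters was not tested.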

How the results depend on the processing

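The log2 ratio of the summed level stayed above 0 under all 15 alternatives in myeloid-like cells (2.91 to 4.23), all 14 in astrocyte-like cells (1.48 to 3.904), all 14 in OL-lineage-like cells (0.41 to 1.37) and 14 of 15 in neuron-like cells (-0.13 to 0.92). The choice of genes in the sum moved it most. Without Ddx60 it was 2.91, 1.48, 0.41 and -0.13 in these classes, and without Ddx60 and Stat2 4.23, 3.904, 1.37 and 0.92. In neuron-like cells it was also 0.23 with doublets kept and 0.25 with the unnamed cluster 0 added. The difference in the share of myeloid-like cells was 18.1 points without clusters mostly of 1 library, 17.0 in cluster 3 alone, 27.8 in cells with a Y-linked UMI and no Xist, 34.2 when thinned to 2000 UMIs, 39.8 without thinning and 5.24 for at least 2 genes. For single genes, 367 values were computed under alternatives, with bounds for genes with no control UMI. No value was computed where the WMI count was 0, or where the control count was 0 and the WMI count at most 3. Values that could have been below 0 were thus left out, and a bound kept in astrocyte-like cells could only be above 0. Some alternatives kept the same cells, so they repeat the reported values of sums and single genes and add no check. In astrocyte-like cells (502 and 629) these were resolutions 0.4 and 1.6 and leaving out clusters mostly of 1 library. In OL-lineage-like cells (576 and 983) they were resolution 1.6 and that omission. The mean within clusters rested on 1 cluster in astrocyte-like and in myeloid-like cells, which in the latter was cluster 3. Of the 367 values, 341 lay within the interval of the value reported. All 99 in myeloid-like and all 85 in astrocyte-like cells were above 0, but the intervals of 15 of the 367 came to include 0 where the reported one did not, 5 of them for Isg15 in myeloid-like cells (2.30 to 2.71 with doublets kept, without clusters mostly of 1 library, in cells with a Y-linked UMI and no Xist, with up to 1% mitochondrial UMIs and in cluster 3 alone) and 1 for Ifit1 there. Signs changed only where the reported interval includes 0, in cells with up to 1% mitochondrial UMIs for Stat2 (0.10) and Ifit2 (0.01) in OL-lineage-like and Ifit2 (-0.0037) in neuron-like cells, with a Y-linked UMI and no Xist for Stat2 in OL-lineage-like (0.09) and Ifit2 in neuron-like cells (-0.44), and at resolution 0.4 for Ifit2 in OL-lineage-like cells (0.05). The interval of the sum in neuron-like cells, which as reported includes 0, was above 0 under 9 and below 0 under 1 of the 15. The sums without Ddx60 or Stat2, cluster 3 alone, cluster 0 added and the removal of the richest cells were chosen after seeing the data. No paired analysis was possible because each group had 1 library, and for the same reason no library could be left out. Depth limits the genes with under 20 UMIs.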
